A study of Mus musculus with 12 samples.

Results

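The clustered histone genes were taken as every gene of the deposited expression table whose symbol starts with Hist1h, Hist2h, Hist3h or Hist4h, which gave 70 of 54532 genes. They comprise 6 genes of the linker histone family H1 and 20, 19, 12 and 13 genes of the core histone families H2A, H2B, H3 and H4. On build GRCm38, 56 belong to Hist1 on chromosome 13, 10 to Hist2 on chromosome 3, 3 to Hist3 on chromosome 11 and 1 to Hist4 on chromosome 6. Hist1 members fall in a block of 24 genes (chr13:21715763-22043676), a block of 31 genes (chr13:23531050-23934851) and the lone Hist1h2al. The annotation calls Hist1h2al, Hist1h2aj and Hist3h2bb-ps pseudogenes. Counts of reads were recovered from the values, with at least 1 read for 62 of the 70 genes, and 27 passed the filter on low values and were tested.

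The study sequenced RNA from mouse brain in 12 libraries, 3 in each of 4 groups. Treated mice were given 5-aminolevulinic acid (5-ALA) at 20 mg/kg, a heme precursor that cells turn into a light-activated pigment, and 30 min later 635 nm laser light at 20 J per square centimetre. Brain tissue was collected 1.5, 12 or 48 h afterwards after perfusion with saline, and the series asks how the brain transcriptome differs at these times after this photodynamic therapy. Titles call the 3 controls PBS, while their treatment label is untreated. The labels give BALB/c as the source and C57BL/6 as the strain, and they do not give age, sex, brain region, whether controls had light, or whether RNA with a poly(A) tail was selected. Whether libraries stem from different animals is not stated either, so p-values measure only the spread between these libraries, which may be technical. A 12 h column carries a number that no sample title has, and is called here the unnumbered 12 h library.

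Core histones form the octamer around which DNA is wound, with a tetramer of H3 and H4 flanked by dimers of H2A and H2B, and H1 binds the linker DNA between octamers. Most clustered histone genes are replication-dependent: they lack introns, are transcribed mainly in S phase, and their mRNA ends just after a conserved stem-loop bound by the protein SLBP in place of a poly(A) tail. Some of these genes also give longer, polyadenylated transcripts in differentiated cells such as neurons. Replication-independent variants such as H3.3, from H3f3a and H3f3b, lie elsewhere in the genome and have ordinary polyadenylated mRNA.

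The stem-loop is shown for members on which the results turn, since it is the element that sets these transcripts apart. It was searched for in GENCODE M21 transcripts as the histone stem-loop, with a stem of 6 base pairs and a loop of 4 bases, on the transcript's strand. It was found in 46 of the 70 members and in 107 of 55380 other genes (0.193%). Capitals mark the 16 bases of the stem-loop, lower case the flanking bases, and positions are on GRCm38.
Hist1h4d (chr13:23581945-23581970, plus strand): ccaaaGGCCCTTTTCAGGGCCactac
Hist1h4h (chr13:23531453-23531478, plus strand): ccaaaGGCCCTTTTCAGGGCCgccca
Hist1h4a (chr13:23760795-23760820, minus strand): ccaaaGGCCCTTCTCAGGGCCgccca
Hist1h3g (chr13:23535884-23535909, plus strand): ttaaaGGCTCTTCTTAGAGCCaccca
Hist1h2bk (chr13:22036295-22036320, plus strand): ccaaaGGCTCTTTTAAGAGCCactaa
Hist1h1c (chr13:23739507-23739532, plus strand): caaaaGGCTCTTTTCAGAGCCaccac
Hist3h2ba (chr11:58949344-58949369, plus strand): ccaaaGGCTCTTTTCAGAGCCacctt
The same 16 bases, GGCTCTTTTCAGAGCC, stood in 26 members from all families but H4. Another version, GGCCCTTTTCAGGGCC, stood in 7 members, all H4 genes. In 23 members the annotated transcript ended within 100 bases of the stem-loop, as in Hist1h4h (46 bases after it), Hist1h3g (47) and Hist1h2bk (30). In another 23 it ran on for longer, as in Hist1h4d (770 bases), Hist1h1c (840) and Hist3h2ba (169), and in 24 no stem-loop was found in the annotated transcript. A poly(A) signal (AATAAA or ATTAAA) in the last 40 bases was found in 2, 12 and 3 members of these 3 classes.

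Promoters are shown for 3 genes whose 12 h libraries stood well above all others, chosen after their values were seen. RefSeq windows on GRCm38.p6 were matched for 61 of the 70 members, by gene identifier through older symbols, and the 250 bases before the transcript start were searched. Capitals mark the CCAAT box, CCAAT, and the TATA box, TATAAA, on either strand, so that the reverse complements ATTGG and TTTATA count too.
Hist1h3i (chr13:21783398-21783647, minus strand): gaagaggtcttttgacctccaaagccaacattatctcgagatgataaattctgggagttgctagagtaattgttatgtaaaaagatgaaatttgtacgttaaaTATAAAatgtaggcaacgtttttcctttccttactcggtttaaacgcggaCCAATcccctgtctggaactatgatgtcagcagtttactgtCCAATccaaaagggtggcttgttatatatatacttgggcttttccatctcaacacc
Hist1h1b (chr13:21780626-21780875, minus strand): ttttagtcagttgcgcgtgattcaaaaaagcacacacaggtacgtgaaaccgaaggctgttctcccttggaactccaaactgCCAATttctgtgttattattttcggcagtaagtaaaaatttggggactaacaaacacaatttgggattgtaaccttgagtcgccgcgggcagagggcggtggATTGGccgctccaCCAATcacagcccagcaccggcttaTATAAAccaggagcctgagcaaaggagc
Hist1h4d (chr13:23581318-23581567, plus strand): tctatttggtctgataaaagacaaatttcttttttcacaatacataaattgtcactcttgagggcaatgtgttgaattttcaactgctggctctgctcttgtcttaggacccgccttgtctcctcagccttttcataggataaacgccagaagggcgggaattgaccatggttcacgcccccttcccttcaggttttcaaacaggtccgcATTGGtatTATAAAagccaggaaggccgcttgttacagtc
At least 1 CCAAT was found in 50 of the 61 member windows (82%), against 34.5% of all 27025 promoter windows. TATAAA was found in 29 (47.5%), against 13% of all windows. Of the 13 genes that rose at 12 h, 10 held CCAAT and 8 held TATAAA. A match of letters is a description and shows no binding.

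Between 15348579 and 17444654 reads per library could be recovered from the deposited FPKM values. FPKM here are fragment counts divided by gene length and by a scaling total per library, so that levels can be compared between genes per length. That total was not the library's own number of reads: it was 12146500 for 15709617 recovered reads in 1.5 h replicate 1. Of the recovered reads, the 70 genes held few, with 1043 to 1224 in the controls, 1215 to 2465 at 1.5 h, 1432 to 1729 at 12 h and 1239 to 1998 at 48 h. Replicates 1 and 3 of the 1.5 h group stood apart from the other 10 libraries. Mitochondrial genes took 12.4% and 9.14% of their reads, against 4.16% to 6.14% elsewhere, and their values fell with gene length (slopes of -0.104 and -0.0598 in log2 units per doubling of length, against -0.00889 to 0.0413). The median length of the members is 532 bases, against 3516 bases for all tested genes, so results at 1.5 h are given library by library. Differences are of log2(FPKM + 1) with the standard error (SE) of a limma fit to all 12 libraries. That scale understates changes of low genes and depends on the added 1, so no fold is given for members near 0 in a group. A gene is said to have risen or fallen where its Benjamini-Hochberg adjusted p over all 17664 tested genes was below 0.05. In bulk tissue, a different number of cells of a type and a different amount of RNA per cell cannot be told apart.

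In the controls the level of the clustered histone genes was set by a few of them. Hist3h2ba, an H2B gene, was highest at 33 ± 5 FPKM (SD, n = 3 for all values here), followed by the H2B gene Hist1h2bc at 8.61 ± 0.39, the H2A pseudogene Hist1h2al at 6.52 ± 1.5, Hist1h1c of H1 at 4.62 ± 0.64 and Hist3h2a of H2A at 4.33 ± 0.48. Next came Hist1h4i at 2.15 ± 0.11, Hist2h2be at 1.92 ± 0.43, Hist1h4h at 1.42 ± 0.19 and Hist2h4 at 1.19 ± 0.14. From Hist1h2al down, the control values of each gene overlapped those of the next, except those of Hist3h2a and Hist1h4i, and Hist3h2ba stood above all others in every control. All 70 genes together summed to 64.1 to 74.1 FPKM in the controls. Of the 8 genes at 0 throughout (Hist1h2ag, Hist1h2ap, Hist1h4b, Hist2h2aa1, Hist2h2aa2, Hist2h2bb, Hist2h3b and Hist2h3c1), 5 have no stretch of 50 bases that occurs in no other annotated transcript. For the 13 genes that rose at 12 h, the median share of such unique stretches was 59.6%, from 10.2% in Hist1h4m and 12.4% in Hist1h3i to 100% in Hist1h1a and Hist1h1b. How reads shared by near-identical copies were counted is not given in the sources used here, so levels of genes with a low share are uncertain. None of the 13 overlaps another annotated gene (0 of 13), while 26 of the 70 do, among them Hist3h2a, which lies within the span of Trim17 on the same strand.

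At 12 h, more clustered histone genes were detected and more were higher than in any other group. At least 1 read was found for 46, 49 and 51 of the 70 genes in the 12 h libraries, against 29, 30 and 36 in the controls and 32 to 43 at the other times. The 12 h libraries held 15746042 to 16490476 reads in all, against 16306254 to 17103868 in the controls, and their counts of detected genes lay above those of every other library. Against control, 13 of 27 tested members rose and 0 fell (limma), where 13.3% of all tested genes rose and 7.9% fell. At an unadjusted p below 0.05, 16 were higher and 0 lower, where 18.8% and 14.9% of all tested genes were. Of the 62 genes with a read, 30 had all 12 h libraries above all controls and 0 had them below, against 20.9% and 14.9% of all genes with a read. With 12 h replicate 1, replicate 2 or the unnumbered library left out, 7 of 23, 22 and 23 tested members rose, where 13.9%, 12.1% and 12.9% of all tested genes were called in either direction. In a fit with the replicate number as a block, which had fewer libraries, 5 of 23 rose, where 6.18% of all were called. Exact permutation tests of 3 against 3 libraries cannot go below p = 0.1, two-sided.

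The filter bears on that count. It kept genes above 0.5 FPKM in at least 3 libraries, and 11 of the 27 passed only with the 12 h libraries, so that they had to be higher there. Of these, 9 are among the 13 that rose. Among the 16 that passed without the 12 h libraries, 4 rose and 0 fell: Hist1h1c, Hist1h3i, Hist1h4h and Hist1h4n. Of all 16710 genes that passed without the 12 h libraries, 11.4% rose and 8.35% fell. The median difference over these 16 members was 0.35, against -0.02 over those genes. With no filter beyond a read in 1 library, 16 of 62 members rose at 12 h and 0 fell, of which 10 were also among the 13, where 8.7% of all genes rose.

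**Figure D1:**
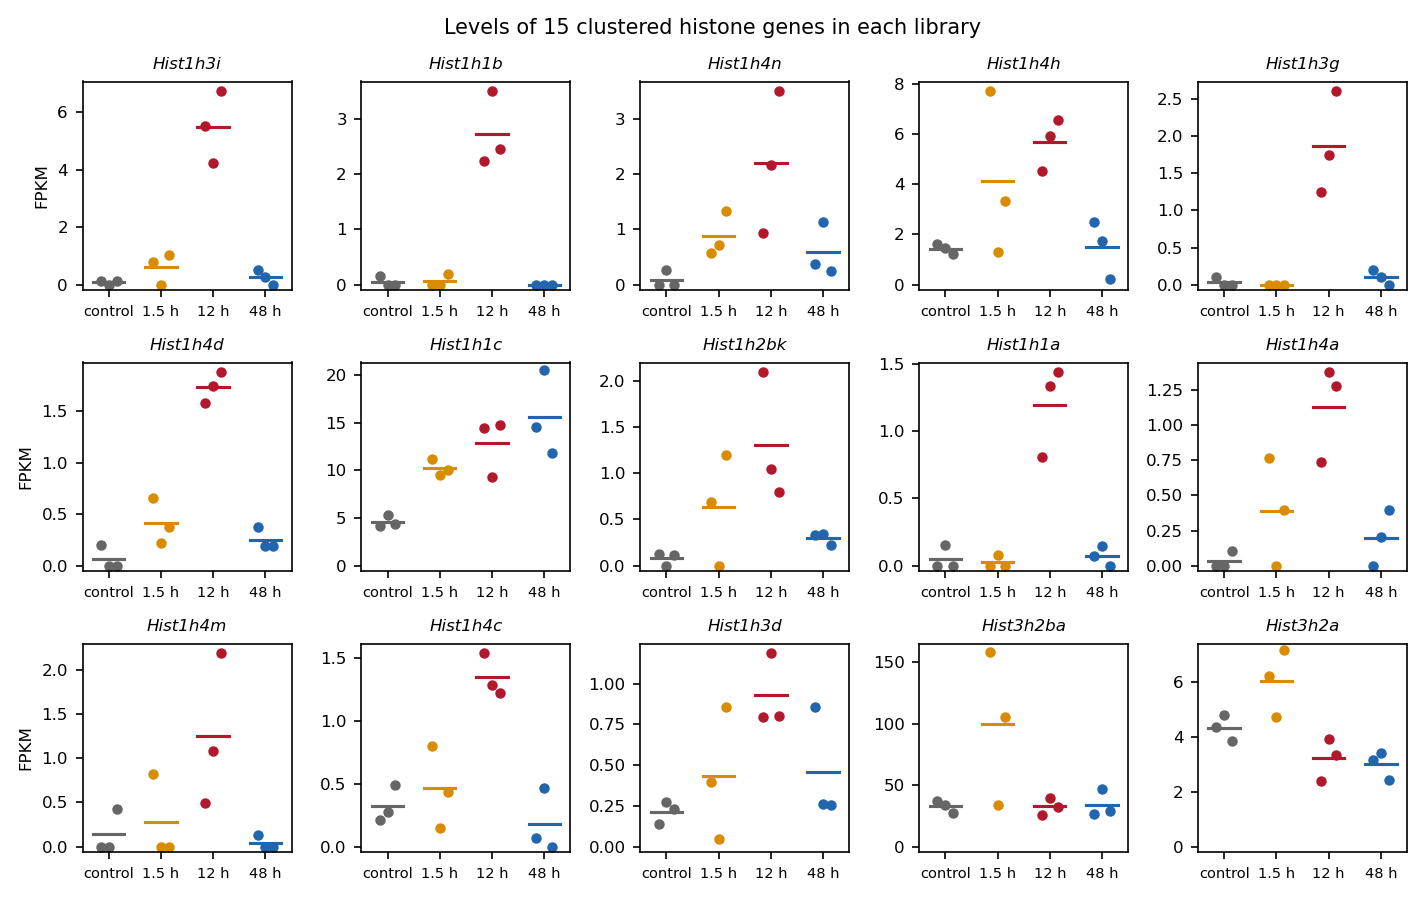
FPKM (vertical axis, from 0, scaled per gene) of 15 histone genes in the control, 1.5 h, 12 h and 48 h groups: the 13 that rose at 12 h, and Hist3h2ba and Hist3h2a. Points are libraries and bars are means of 3. For the 13, every 12 h point lies above every control point, and most return towards control at 48 h, while Hist1h1c stays high.

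All 3 tested H1 genes rose at 12 h, where 13.3% of all tested genes did. Of these 3, Hist1h1a and Hist1h1b passed the filter only with the 12 h libraries. Hist1h1b (chr13:21779883-21780625, minus strand), a replication-dependent linker histone gene, was at 2.24, 3.5 and 2.45 FPKM in the 12 h libraries, from 25, 42 and 29 reads. In the other 9 libraries it was at 0 in 7, at 0.156 in control replicate 1 and at 0.192 in 1.5 h replicate 3, so that the groups did not overlap. Its 12 h difference was 1.81 ± 0.14 (SE) against control (adjusted p = 1.5e-05) and 1.80 ± 0.14 against 1.5 h (adjusted p = 3.6e-05). Hist1h1a followed the same course, at 0.807, 1.34 and 1.44 FPKM at 12 h and at most 0.153 in any other library (1.05 ± 0.13 against control, adjusted p = 0.00032).

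Hist1h1c, the most abundant H1 gene here, had a different course. Its controls were at 4.15, 5.34 and 4.36 FPKM and its 1.5 h libraries at 11.2, 9.54 and 10.1. At 12 h it was at 14.4, 9.29 and 14.8, and at 48 h at 14.5, 20.5 and 11.8. All 9 treated libraries lay above all controls. It rose at 12 h (1.28 ± 0.21, adjusted p = 0.0015) and at 48 h (1.54 ± 0.21, adjusted p = 0.00079), and at 1.5 h the difference of 1.01 ± 0.21 did not pass (adjusted p = 0.063). Leaving out 1.5 h replicate 2 turned that into a rise. Its value in 1.5 h replicate 2, which was near the controls in gene length trend and mitochondrial share, was within the range of the treated libraries. Below the filter, Hist1h1e and Hist1h1d had 12 h values above all controls at 0.385 to 0.748 and 0.0716 to 0.108 FPKM, and the testis gene Hist1h1t had 1, 3 and 3 reads at 12 h and 0 in every other library. Summed over its 6 genes, H1 was at 4.97 ± 0.82 FPKM in the controls, 10.7 ± 0.74 at 1.5 h, 17.5 ± 2.5 at 12 h and 16.1 ± 4.6 at 48 h (SD, n = 3).

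Among H3 genes, which encode the core histone whose tail carries many regulatory marks, 3 of 4 tested rose at 12 h. Of these 3, Hist1h3d and Hist1h3g passed the filter only with the 12 h libraries. Hist1h3i (chr13:21782960-21783370, minus strand) had the largest difference of any tested member, at 5.5, 4.22 and 6.72 FPKM at 12 h, from 34, 28 and 44 reads. Controls were at 0.141, 0 and 0.139, the 1.5 h libraries at 0.801, 0 and 1.04, and the 48 h libraries at 0.52, 0.266 and 0. Its 12 h values lay above all others, and its 48 h values were near the controls, with a difference of 2.55 ± 0.26 against control (adjusted p = 7.5e-05). Hist1h3g was at 1.25, 1.75 and 2.61 FPKM at 12 h, was listed at 0 in every 1.5 h library and reached at most 0.201 elsewhere (1.44 ± 0.16 against control, adjusted p = 0.00012). Hist1h3d rose less, from 0.213 ± 0.068 to 0.931 ± 0.22 FPKM (SD, n = 3; difference 0.67 ± 0.21, adjusted p = 0.045), and did not pass in 14 of 24 alternative analyses, among them those without any 1 of the 12 h libraries or of the controls. Hist2h3c2, the tested H3 gene outside Hist1, was at 0.468 ± 0.29 in the controls and 1.11 ± 0.59 at 12 h, with overlapping groups (adjusted p = 0.19). All 12 H3 genes together summed to 0.923, 0.833 and 1.45 FPKM in the controls and 9.74, 9.04 and 13.3 at 12 h, and returned to 3.67, 2.04 and 0.763 at 48 h.

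H4, the partner of H3 in the core tetramer, had the most genes that rose, 6 of 10 tested, where 13.3% of all tested genes rose. Of the 6, Hist1h4a, Hist1h4c, Hist1h4d and Hist1h4m passed the filter only with the 12 h libraries, so that they had to be higher there. Hist1h4d was at 1.58, 1.74 and 1.88 FPKM at 12 h, and at 0.203, 0 and 0 in the controls (1.36 ± 0.14, adjusted p = 7.7e-05). Between these, 1.5 h replicates 1, 2 and 3 stood at 0.651, 0.215 and 0.377, all above the controls and all below 12 h. Hist1h4h had the highest mean of the H4 genes at 12 h, though it overlapped Hist1h4i there. It was at 4.52, 5.93 and 6.55 FPKM against 1.6, 1.45 and 1.22 in the controls (1.45 ± 0.45, adjusted p = 0.04), and 1.5 h replicate 1 was higher still at 7.71. The call was lost in 12 of 25 alternatives, again including each that left out a 12 h or a control library. The other 4 were Hist1h4n (0.0878 ± 0.15 to 2.2 ± 1.3 FPKM, adjusted p = 0.0053), Hist1h4a (0.0354 ± 0.061 to 1.13 ± 0.34, adjusted p = 0.0052), Hist1h4c (0.325 ± 0.14 to 1.35 ± 0.17, adjusted p = 0.0095) and Hist1h4m (0.142 ± 0.25 to 1.25 ± 0.86, adjusted p = 0.043), each mean ± SD of 3 libraries. Hist1h4k and Hist1h4i were also above all controls at 12 h but did not pass (1.02 ± 0.35, adjusted p = 0.058, and 0.91 ± 0.43, adjusted p = 0.16). Hist1h4j (0.33 ± 0.19, adjusted p = 0.26) and Hist2h4 (-0.02 ± 0.19, adjusted p = 0.96) overlapped the controls. Over all 13 genes, H4 summed to 5.77, 6.17 and 7.67 FPKM in the controls and to 19.6, 26.4 and 23.9 at 12 h, without overlap. The 1.5 h replicates 1, 2 and 3 summed to 23.7, 7.17 and 15.1 FPKM, so that replicate 1 lay within the 12 h range.

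Of H2A and H2B genes fewer passed the filter, 3 of 20 and 7 of 19, against 10 of 13 for H4. Among these 10 tested H2A and H2B genes, 1 rose at 12 h, and the difference between families was not tested. Below the filter some, such as Hist1h2bq, Hist1h2bh and Hist1h2bn, had all 12 h libraries above all controls, while others, such as Hist1h2bj and Hist1h2ad, overlapped. That gene, Hist1h2bk, was at 0.121, 0 and 0.12 FPKM in the controls and at 2.09, 1.04 and 0.792 at 12 h, from 15, 8 and 6 reads (1.06 ± 0.26, adjusted p = 0.016). Hist1h2bk passed the filter only with the 12 h libraries, and its rise did not pass without control replicate 2 or without 12 h replicate 1. Its divergent neighbour Hist1h2ah, an H2A gene with 301 bases between them, was below the filter but had 3, 5 and 5 reads at 12 h, 0 in the controls and at most 1 elsewhere. Hist1h2af had 5, 7 and 2 reads at 12 h and 0 in every other library; it and Hist1h2ah were chosen as examples after their values were seen. Hist1h2ae (0.50 ± 0.17, adjusted p = 0.063) and Hist1h2be (0.37 ± 0.14, adjusted p = 0.091) lay above all controls at 12 h without passing. The summed level of the 19 H2B genes was 46.1 ± 5 FPKM in the controls and 51.2 ± 7.3 at 12 h (SD, n = 3), with overlap. H2A summed to 11.7 ± 2 and 13.4 ± 0.66 FPKM. Both sums are set by a few genes: Hist3h2ba and Hist1h2bc for H2B, Hist1h2al and Hist3h2a for H2A.

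**Figure D2:**
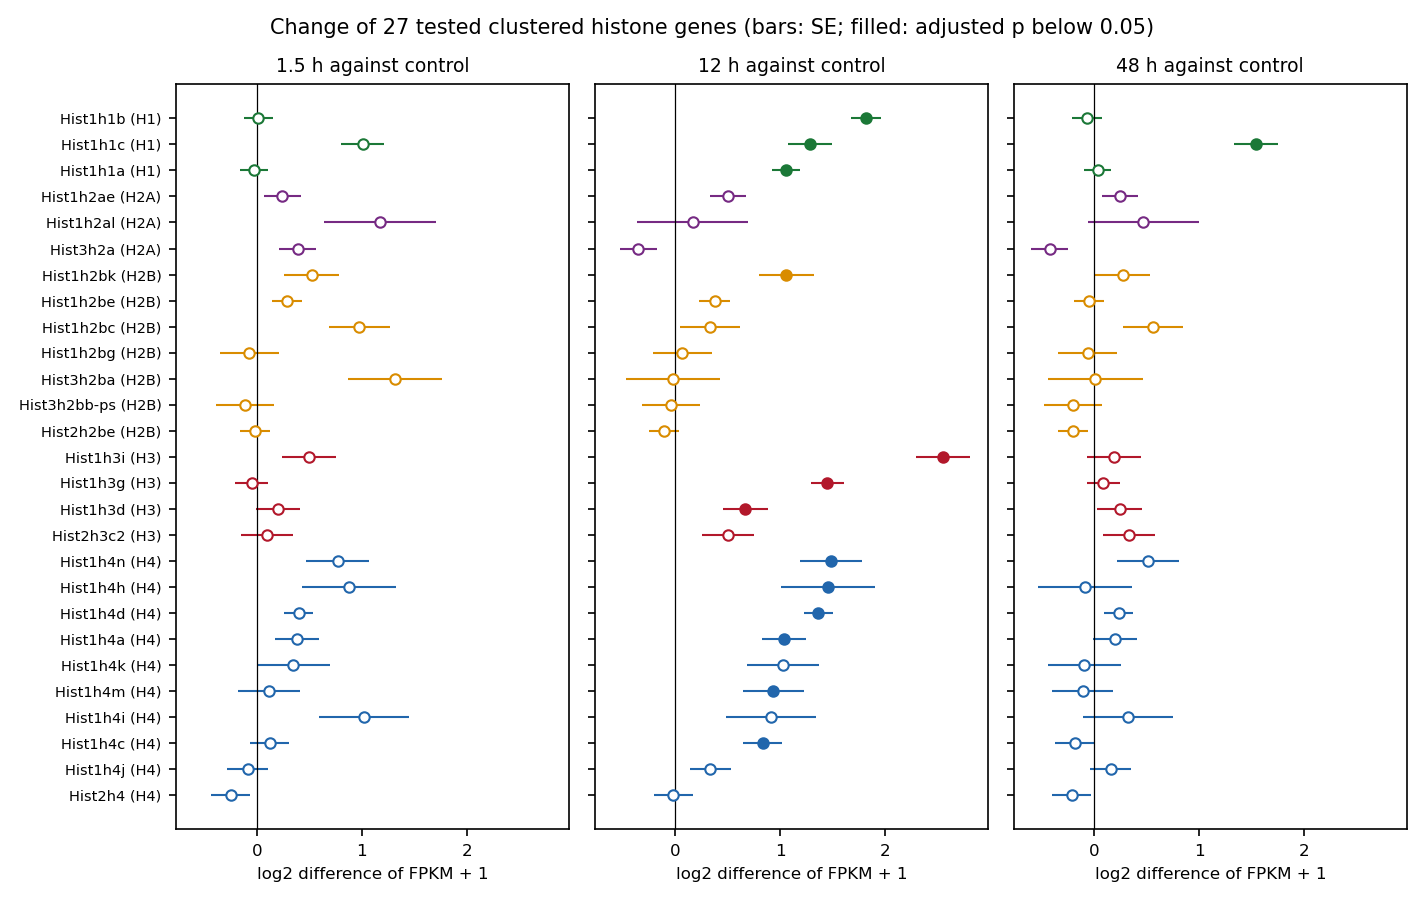
Log2 difference of FPKM + 1 against control (horizontal axis) for the 27 tested histone genes, in rows by family, at 1.5, 12 and 48 h; bars are the SE of the limma fit and filled points have an adjusted p below 0.05. Filled points number 0 at 1.5 h, 13 at 12 h and 1 at 48 h, and at 12 h they lie mostly in H1, H3 and H4. Of those 13, 9 passed the filter only with the 12 h libraries.

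All 13 genes that rose at 12 h lie in Hist1, of 21 tested there: 5 in the first block and 8 in the second. Of the 13, 9 passed the filter only with the 12 h libraries. None of the 3 tested genes of Hist2 (Hist2h2be, Hist2h3c2, Hist2h4) or of Hist3 rose, and that difference between clusters was not tested. Summed over its 56 genes, Hist1 was at 28.7 ± 2.2 FPKM in the controls and 75.5 ± 4.5 at 12 h, while Hist2 was at 3.66 ± 0.28 and 4 ± 0.57 and Hist3 at 37.9 ± 5.2 and 36.4 ± 7.5 (SD, n = 3). Divergent neighbours within 1000 bases form 15 pairs, 14 of them an H2A with an H2B gene. In 1 pair, Hist1h2ah with Hist1h2bk, a gene rose at 12 h, and in 0 pairs did both. In most pairs at least 1 gene was not tested and so could not be called. The count therefore does not show whether neighbours rose together.

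**Figure D3:**
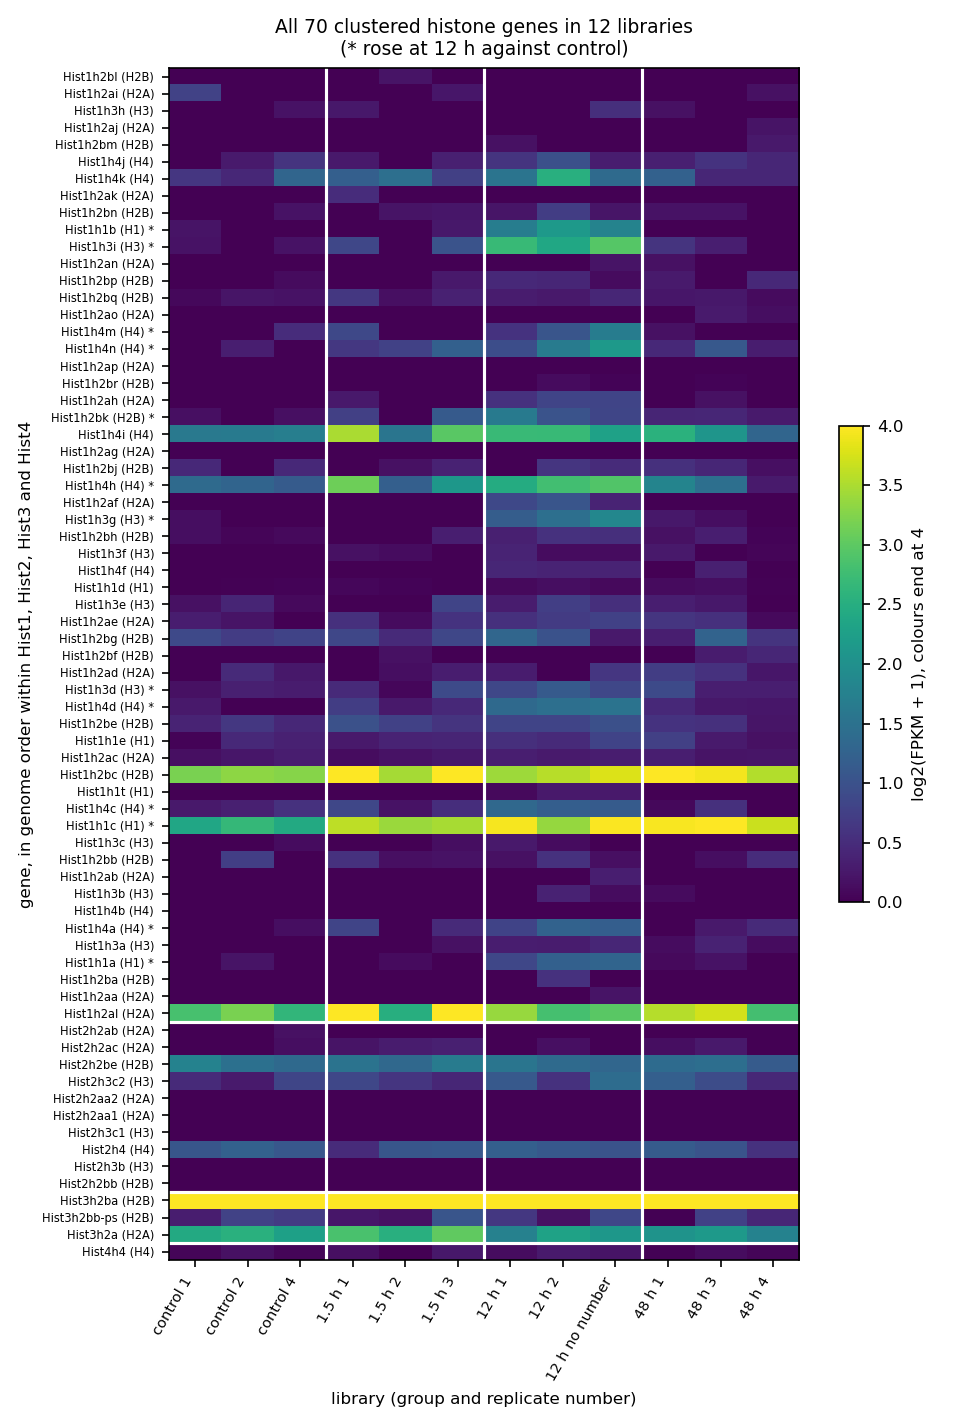
Level of all 70 histone genes (rows, in genome order within Hist1, Hist2, Hist3 and Hist4) in the 12 libraries (columns), as log2(FPKM + 1) with colours that end at 4; asterisks mark the 13 genes that rose at 12 h. Brighter cells in the 12 h columns are spread over both Hist1 blocks, and 8 rows are at 0 throughout.

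The members were also grouped by annotated transcript end, and levels summed over every member of a class, tested or not. The 23 genes ending within 100 bases of it summed to 2.53 ± 0.3 FPKM in the controls (2.2 to 2.78) and 14.4 ± 3.4 at 12 h (11 to 17.8), SD of 3 libraries, and to 4.42 ± 1.6 at 48 h. Those running on for over 100 bases summed to 48.7 ± 4.8 in the controls and 66.3 ± 5.5 at 12 h, and those with no stem-loop found to 19.1 ± 1.1 and 35.4 ± 1.4. At 12 h all 3 classes lay above their controls. At 1.5 h replicate 2 was the lowest in each class, at 2.74, 54.1 and 18.6 FPKM. The class of short ends has 5 tested members, Hist1h4h, Hist1h4n, Hist1h2bk, Hist1h3g and Hist1h4m, all of which rose at 12 h, 3 of them having passed the filter only with those libraries. No test of the difference between classes was made.

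**Figure D4:**
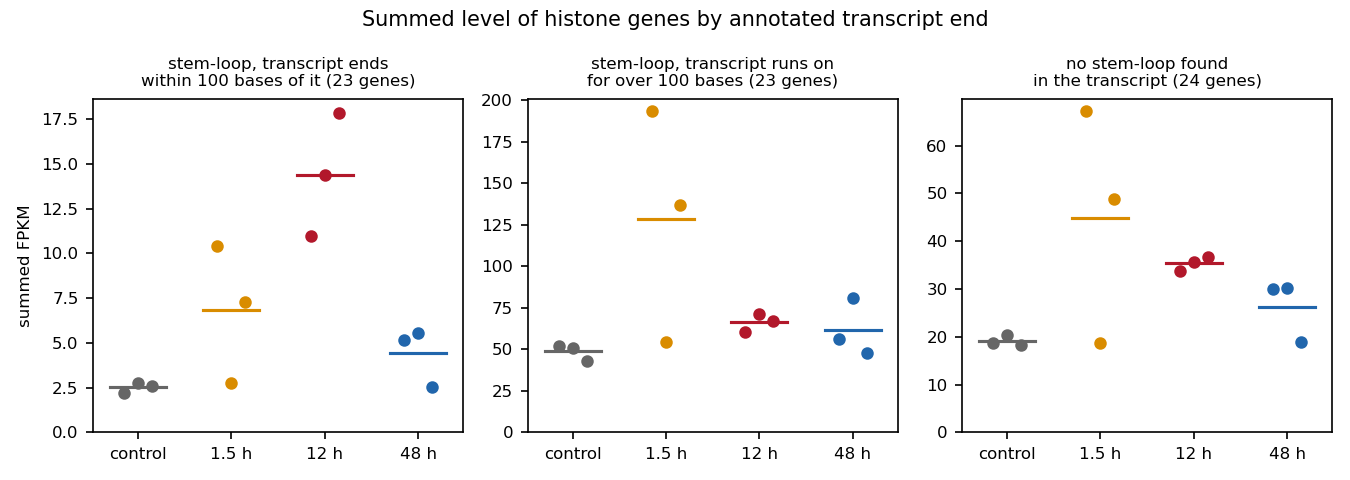
Summed FPKM (vertical axis, from 0, scaled per panel) of 23, 23 and 24 histone genes by how the annotated transcript ends, in the 4 groups; points are libraries and bars are means of 3. In the class that ends within 100 bases of the stem-loop the 12 h libraries are highest, while in the other 2 classes 1.5 h replicates 1 and 3 are.

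At 48 h most of these genes were back near control. Of the 13, 10 fell between 12 h and 48 h (limma), and 0 members rose, where 9.73% of all tested genes fell and 5.88% rose. They were Hist1h1b (-1.88 ± 0.14, adjusted p = 2.4e-05), Hist1h3i (-2.36 ± 0.26, adjusted p = 0.00019), Hist1h3g, Hist1h4d, Hist1h1a, Hist1h4c, Hist1h4a, Hist1h4m, Hist1h4h and Hist1h4n, the last at an adjusted p of 0.0499. Of the genes with a read, 19 had all 48 h libraries below all 12 h libraries and 0 had them above, against 16.8% and 12.8% of all such genes. Since these 10 were high at 12 h, the fall rests on the same 12 h libraries as the rise. Most of the 10 passed the filter only with those libraries. Among the 16 members that passed without them, 3 fell and 0 rose. The median difference over these 16 was -0.17, against 0.02 over all genes that passed without them. Against control, Hist1h1c was the 1 gene that rose at 48 h and 0 fell, where 7.5% of all tested genes rose and 5.01% fell. For the other 12 genes, the 48 h difference from control lay between -0.19 (Hist1h4c) and 0.51 (Hist1h4n), with an SE of 0.13 to 0.45. The call for Hist1h4n was lost in 18 of 24 alternatives and that for Hist1h4h in 13 of 25. Summed over the 13 genes, levels were 6.83 to 7.75 FPKM in the controls, 35.9 to 46.3 at 12 h and 13.3 to 25.4 at 48 h, where Hist1h1c made up most of the sum.

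At 1.5 h, 0 of the 27 tested members rose and 0 fell against control (limma), where 0.419% of all tested genes rose and 0.136% fell. At an unadjusted p below 0.05, 8 members were higher and 0 lower, where 18.9% and 12.7% of all tested genes were. The libraries of this group differed widely from each other, and the 70 genes together summed to 75.5 to 271 FPKM, against 105 to 122 at 12 h. Scaled to each library's own total, the sums were 74.3 to 210 and 101 to 121 FPKM. Hist3h2ba was at 159, 34.1 and 106 FPKM in replicates 1, 2 and 3, against 37.4, 34 and 27.7 in the controls (1.32 ± 0.45, adjusted p = 0.1). Replicates 1 and 3 were far above the controls, and replicate 2 lay among them.

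The same split was seen in other abundant members. Hist1h2bc was at 28.7, 9.96 and 19.7 FPKM against 8.2, 8.97 and 8.66 in the controls (0.98 ± 0.29, adjusted p = 0.089), all 3 libraries being higher. The pseudogene Hist1h2al was at 33, 4.7 and 23.2 against 6.13, 8.19 and 5.23, and Hist1h4i at 10.3, 1.94 and 6.88 against 2.07, 2.1 and 2.28, with replicate 2 below every control in both. Over the 16 members that passed the filter without the 12 h libraries, the median difference from the control mean was 0.52, -0.01 and 0.73 in replicates 1, 2 and 3, and 0.37, -0.02 and 0.47 after each library's trend with gene length was removed. For the same 16 it was 0.51, 0.29 and 0.51 in the 12 h libraries, and 0.44, 0.21 and 0.45 after removal. Mitochondrial ribosomal RNA took 5.51%, 0.831% and 2.18% of reads in the 1.5 h replicates, 0.616% to 0.823% in the controls and 1.03% to 1.3% at 12 h, and the part of this and of the length trend in the results was not tested. Without replicate 2, 11 of 27 members rose and 0 fell at 1.5 h (40.7%), where 46.1% of all tested genes were called in either direction. The share of all genes that rose in that fit was not taken separately, so the rises have no background of their own direction. Without replicates 1 and 3 together, the differences of Hist1h2al and Hist1h4i turned to the other sign, at -0.38 and -0.10.

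Of the genes with a read, 5 had all 1.5 h libraries above all controls and 0 had them below, against 8.67% and 7.9% of all such genes: Hist1h1c, Hist1h2bc, Hist1h4d, Hist1h4n and, below the filter, Hist2h2ac. At 48 h 4 had all libraries above and 1, Hist3h2a, had them below, against 13.4% in each direction. Hist3h2a, an H2A gene of Hist3, was at 6.21, 4.74 and 7.16 FPKM at 1.5 h, 2.38, 3.93 and 3.34 at 12 h and 3.16, 3.41 and 2.41 at 48 h, with controls at 4.36, 4.81 and 3.84 that overlapped the 1.5 h and the 12 h libraries. It fell from 1.5 h to 12 h (-0.74 ± 0.18, adjusted p = 0.0099) and to 48 h (-0.81 ± 0.18, adjusted p = 0.01), and both calls were lost without 1.5 h replicates 1 and 3. It was the 1 member called between 48 h and 1.5 h, where 8.87% of all tested genes fell and 8.91% rose.

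Between 12 h and 1.5 h, 7 members rose and 2 fell, where 16.9% of all tested genes rose and 16.3% fell. Those that rose were Hist1h1a, Hist1h1b, Hist1h3g, Hist1h3i, Hist1h4a, Hist1h4c and Hist1h4d, all among the 13 above, by 0.65 (Hist1h4a) to 2.05 (Hist1h3i). All but Hist1h3i had passed the filter only with the 12 h libraries. Among the 16 members that passed without them, 1 rose and 2 fell, with a median difference of 0.11. Besides Hist3h2a, Hist3h2ba fell (-1.34 ± 0.45, adjusted p = 0.04), with groups that overlapped through 1.5 h replicate 2, a call lost in 13 of 25 alternatives. Of the genes with a read, 15 had all 12 h libraries above all 1.5 h libraries and 2 had them below, against 17% and 11% of all such genes. A test for any difference among the 4 groups passed for 13 members, among them Hist3h2a and not Hist1h3d, where it passed for 38.4% of all tested genes. The 12 h and 48 h differences from control share the control libraries, and those among treated groups share treated libraries.

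The genes of DNA replication and S phase, with which these histone genes are normally coupled, had another time course. Of 27 tested genes of a list of 28, 1 rose and 1 fell at 12 h, where 13.3% of all tested genes rose and 7.9% fell. At 48 h 17 of the 27 rose and 0 fell, where 7.5% of all tested genes rose and 5.01% fell. The summed level of the list was 36.3 to 39.3 FPKM in the controls, 44.4 to 45.6 at 12 h and 72 to 112 at 48 h. In 1.5 h replicates 1, 2 and 3 it was 60.4, 35 and 56.9 FPKM, with replicates 1 and 3 above every 12 h library. At 12 h Cdt1, a licensing factor, rose (1.26 ± 0.20, adjusted p = 0.0014) and Lig1, the replicative DNA ligase, fell (-0.62 ± 0.17, adjusted p = 0.022). At 48 h Top2a, Mki67 and Mcm6, markers of cycling cells, rose by 1.44 ± 0.19, 1.39 ± 0.18 and 1.34 ± 0.18, whereas their 12 h differences were 0.18, 0.11 and 0.08 with adjusted p values of 0.57, 0.73 and 0.79. On average the H3 and H4 sums were highest at 12 h and the S phase sum at 48 h. The H1 sums at 12 h and 48 h overlapped, and their order turned when values were scaled to each library's own total (17.1 ± 2.6 and 17.6 ± 4.7 FPKM).

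**Figure D5:**
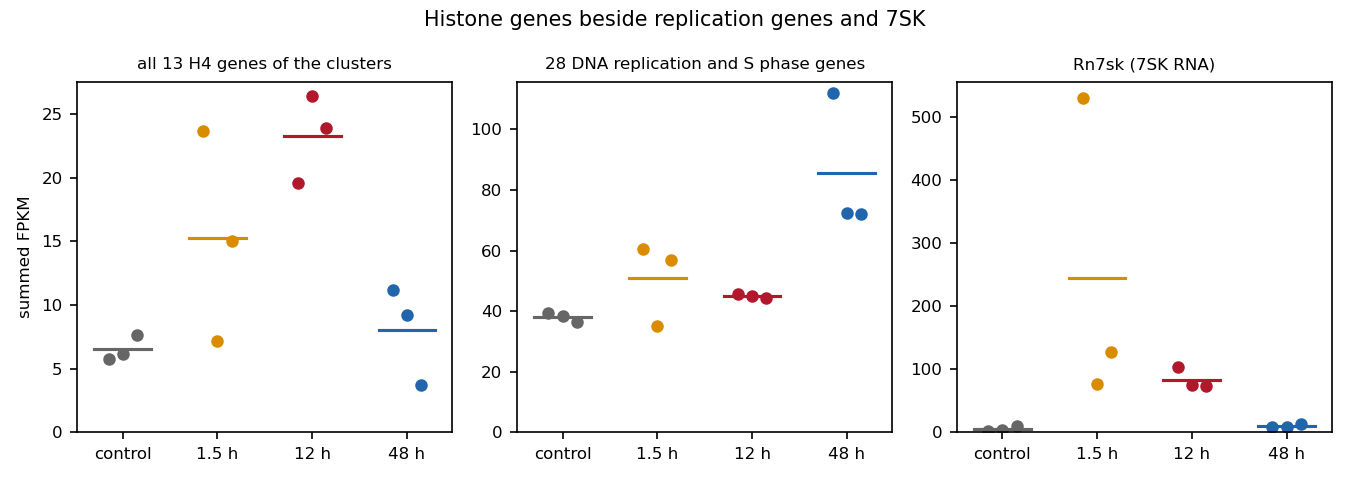
Summed FPKM (vertical axis, from 0, scaled per panel) of the 13 H4 genes, of the 28 genes listed for DNA replication and S phase, and of Rn7sk alone, in the 4 groups; points are libraries and bars are means of 3. H4 is at 7.17 to 23.7 at 1.5 h, 19.6 to 26.4 at 12 h and 3.73 to 11.2 at 48 h. Its 1.5 h and 12 h ranges overlap. The S phase list is highest at 48 h and Rn7sk at 1.5 h and 12 h.

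Among 19 tested genes for transcription and 3' end processing of histone mRNA, 1 rose and 4 fell at 12 h. Of all tested genes, 13.3% rose and 7.9% fell at that time. Lsm11, a part of the U7 particle that cuts histone mRNA after the stem-loop, was at 5.57, 5.68 and 6.72 FPKM in the controls and 29.8, 28.7 and 25.7 at 12 h (2.06 ± 0.27, adjusted p = 0.0004). Slbp, which binds the stem-loop, fell from 2.86, 2.89 and 2.57 to 1.73, 1.95 and 2.1 (-0.37 ± 0.11, adjusted p = 0.029), and Lsm10, the partner of Lsm11, fell by 0.97 ± 0.24 (adjusted p = 0.014). Ccne2 and E2f1, of the entry into S phase, fell too (-0.58 ± 0.15 and -0.60 ± 0.18). At 1.5 h Casp8ap2, a factor of histone locus bodies, fell (-0.67 ± 0.12, adjusted p = 0.043), and at 48 h Cdk2 rose (0.55 ± 0.14, adjusted p = 0.021). Of 21 tested histone chaperones, Nap1l1 and Anp32e rose at 12 h (0.66 ± 0.11 and 0.35 ± 0.11) and Asf1b at 48 h (0.93 ± 0.14), and 0 fell at either time. At 48 h 7.5% of all tested genes rose and 5.01% fell.

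Of 13 tested replication-independent histone variants, 2 rose and 0 fell at 12 h, where 13.3% of all tested genes rose and 7.9% fell. H2afj, a variant of H2A, was at 16.8, 14.3 and 12.6 FPKM in the controls and 30.4, 32.7 and 28.2 at 12 h (1.02 ± 0.32, adjusted p = 0.043), and the other was H2afb3. Their median difference at 12 h was -0.05, against 0.00 over all tested genes. H3f3a and H3f3b did not pass (-0.35 ± 0.29, adjusted p = 0.45, and 0.62 ± 0.26, adjusted p = 0.11). No test of the difference between variants and clustered genes was made.

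Of 12 listed noncoding RNAs without a poly(A) tail, 4 were tested and Rmrp, Rpph1, Rnu11 and Rnu12 were listed at 0 in every library. Rn7sk, a small nuclear RNA that holds back transcription elongation, was at 2.79, 3.42 and 9.5 FPKM in the controls, 530, 77.5 and 128 at 1.5 h, 104, 74.9 and 73 at 12 h and 8.39, 8.91 and 14 at 48 h. It rose at 1.5 h (4.96 ± 0.60, adjusted p = 0.007) and at 12 h (3.90 ± 0.60, adjusted p = 0.001) and fell from 12 h to 48 h (-2.91 ± 0.60, adjusted p = 0.0076). Of the 4 tested, only Rn7sk rose at 1.5 h or 12 h and 0 fell, where 0.419% and 13.3% of all tested genes rose. Like most of the 13 histone genes Rn7sk was high at 12 h and lower at 48 h, and it was already high in 1.5 h replicate 2. In that library Hist1h1c, Hist1h4d and Hist1h4n of the 13 lay above all controls. The others of the 13 did not, and Hist1h1b and Hist1h3i were at 0 there. The share of RNA without a poly(A) tail that each library took up was not measured, and its part in the histone results was not tested.

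Markers of several cell types moved with the 12 h group. The 7 blood leukocyte markers summed to 0.199 to 0.581 FPKM in the controls, 0.703 to 17.6 at 1.5 h, 13.7 to 23.7 at 12 h and 0.659 to 3.38 at 48 h. All 3 tested, Cd3e, S100a8 and S100a9, rose at 12 h, and Cd3e was at 10.3, 8.73 and 3.8 FPKM there and at most 0.06 in any other library. Endothelial markers (4 of 4 rose) summed to 18.1 to 20.8 in the controls and 44.9 to 55.5 at 12 h, and neural progenitor markers (2 of 3 tested rose) to 5.21 to 5.82 and 12.5 to 16.1. At 48 h these lists summed to 41.6 to 65 and 16 to 23.6 FPKM, when most histone genes were back near control. Oligodendrocyte markers (1 of 4, Mobp, rose at 12 h) summed to 735 to 877 FPKM in the controls, 738 to 1211 at 1.5 h, 1336 to 1641 at 12 h and 447 to 1114 at 48 h, and 3 of the 4 fell from 12 h to 48 h. They were thus, like most of the 13 histone genes, highest at 12 h and lower at 48 h, without overlap between 12 h and the other groups. Astrocyte markers (2 of 4 rose at 12 h) summed to 79.6 to 99.4 in the controls, 222 to 265 at 12 h and 514 to 734 at 48 h. Microglial markers (4 of 5 fell at 12 h) summed to 46 to 54 in the controls, 18.6 to 19.7 at 12 h and 66.8 to 79.1 at 48 h. Neuronal markers, which check the labelled tissue, were present at summed levels of 701 to 850 in the controls and 721 to 862 at 12 h, with 0 of 6 called. Germ cell markers, relevant to Hist1h1t, stayed at 0.964 to 2.13 in all libraries, and Tnp1 was at 0. The part of these cell types in the histone results was not tested.

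As a description, the 5 other tested genes whose levels followed the mean log2 level of the 27 tested members most closely over the 12 libraries were Golga7 (Pearson r = 0.97), Dxo (0.96), Nop53 (0.95), Bpnt1 (0.95) and Emd (0.94). Dxo, which encodes a nuclease acting on faulty mRNA caps, was at 8.23 FPKM on average in the controls, 15.3 at 1.5 h, 21.9 at 12 h and 8.77 at 48 h. The points share libraries and their composition, so that no test is given.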

How the data were processed

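Brain RNA-seq libraries, 12 in all, were assigned to 4 groups by title and treatment label. The authors deposited 1 table of FPKM values per gene and library with gene coordinates and lengths, per the file headers. The submitters' processing notes name Bowtie 0.12.2 and the build mm8, but the deposited coordinates of all 70 members equal those of GENCODE M21 on GRCm38, as do 98.3% of all genes found there. The aligner settings, the counting rule, strand and any poly(A) selection are not given in the sources used here. Low values were whole multiples of what 1 read is worth per gene length, within 0.05 of a step, and so gave read counts, used as an alternative only. The deposited scaling equals median-of-ratios size factors.

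A gene entered the tests if 3 or more of the 12 libraries exceeded 0.5 FPKM. Values were put on the log2(FPKM + 1) scale and fitted by limma 3.58.1 (R 4.3.3), using a mean-variance trend, all 4 groups in 1 fit (8 residual degrees of freedom) and 6 contrasts. P-values were adjusted by Benjamini-Hochberg over all 17664 genes of a contrast. Tested on simulated data for 12 h against control over 17189 genes, the fit called 86% of genes raised by 2 and 50% of those raised by 1 on the log2 scale, and 10 of 16989 unchanged ones. The changed genes were drawn from those with a mean above 1 FPKM. Most of the genes that rose at 12 h have a lower mean, so these rates do not carry over to them. The members, lists and alternatives were chosen with earlier results of these data known. Named with values were every member that passed a test, the 12 with the highest mean, and those at 0. Stem-loops and transcript ends come from GENCODE M21 transcripts, promoters from RefSeq on GRCm38.p6. Whether replicate numbers shared between groups pair libraries is not stated. Same-numbered libraries deviated from their group means with a median correlation of -0.0035 over 11 pairs (-0.264 to 0.156). These pairs share libraries, so the values show no pairing but cannot exclude it.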

Additional observations from a re-analysis of the deposited data

Results flagged for a closer look

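Differences between 2 times after treatment, tested in the same fit, passed for 20 pairs of member and comparison. Of the 27 tested members, 11 passed the filter only with the 12 h libraries, which bears on the differences that involve 12 h. From 1.5 h to 12 h, log2(FPKM + 1) differed by 2.05 for Hist1h3i, 1.80 for Hist1h1b, 1.49 for Hist1h3g, 1.08 for Hist1h1a, 0.96 for Hist1h4d, 0.71 for Hist1h4c and 0.65 for Hist1h4a, all higher at 12 h, and by -0.74 for Hist3h2a and -1.34 for Hist3h2ba. From 12 h to 48 h it differed by -2.36 for Hist1h3i, -1.88 for Hist1h1b, -1.54 for Hist1h4h, -1.36 for Hist1h3g, -1.13 for Hist1h4d, -1.04 for Hist1h4m, -1.02 for Hist1h1a, -1.02 for Hist1h4c, -0.97 for Hist1h4n and -0.83 for Hist1h4a. From 1.5 h to 48 h it differed by -0.81 for Hist3h2a.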

How the results depend on the processing

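The 12 h rise of 7 genes (Hist1h1a, Hist1h1b, Hist1h1c, Hist1h3g, Hist1h3i, Hist1h4d and Hist1h4n) passed in every alternative in which they were tested, and 6 others were lost in some. Of 933 single-gene values under alternatives, 801 kept direction and side of the threshold, 121 no longer passed, 9 newly passed and 2 changed sign, Hist1h2al (-0.38) and Hist1h4i (-0.10) at 1.5 h against control without 1.5 h replicates 1 and 3. Leaving out 1 library at a time gave 0 to 11 calls among members at 1.5 h against control, 7 to 16 at 12 h, 1 to 2 at 48 h, 4 to 10 for 12 h against 1.5 h, 1 to 7 for 48 h against 1.5 h, 3 to 12 for 48 h against 12 h and 5 to 19 over any group. The highest counts came without 1.5 h replicate 2, the lowest at 12 h without any 1 of its own libraries. With an added 0.1 FPKM, 9 of 27 tested members rose at 12 h, in place of 13. Of all tested genes, 20.7% were then called in either direction. The same setting gave 1 call at 1.5 h and 6 for 48 h against 12 h. When 12 h was set beside 1.5 h, it left 7 calls in place of 9. A filter of 2 FPKM, which tests fewer members, gave 1 at 1.5 h, 4 at 12 h, 4 for 12 h against 1.5 h, 3 for 48 h against 12 h and 5 over any group. Recovered reads scaled by depth also gave 9 rises at 12 h in place of 13, where 21% of all tested genes were called in either direction. They gave 1 call at 1.5 h and 7 for 48 h against 12 h. When 12 h was set beside 1.5 h, they left 6 calls. Without 1.5 h replicates 1 and 3 there were 2 calls at 48 h and 0 for 48 h against 1.5 h. Fits of only the 2 groups compared gave 2, 0 and, for 12 h against 1.5 h, 5. Length-corrected values gave 2 at 48 h and 2 for 48 h against 1.5 h, and a control sum over tested members of 76.9 FPKM in place of 68.3, and scaling to own totals gave 2 for 48 h against 1.5 h. With the replicate number as a block, calls were 5 at 12 h, 2 for 12 h against 1.5 h, 0 for 48 h against 1.5 h, 3 for 48 h against 12 h and 5 over any group, but the numbers did not pair the libraries. Where no reason is given, the cause was not tested. Depth limits most members: many rest on under 10 reads in a library, and 43 of 70 were not tested.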

Other observations

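The stem-loop version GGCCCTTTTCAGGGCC stood in 7 H4 genes, of which 5 rose at 12 h, while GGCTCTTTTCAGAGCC stood in 26 genes of the other families, of which 2 did. Most of the 26 genes and some of the 7 were not tested and so could not be called. Of those that rose, Hist1h4c, Hist1h4d, Hist1h4m and Hist1h3d passed the filter only with the 12 h libraries. Of all tested genes, 13.3% rose at 12 h. The counts therefore do not compare the 2 versions, and sequence version and gene family cannot be told apart in them.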
